A study of Mus musculus with 46 samples.

Results

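The Tfcp2l1 promoter fragments are P011 and P012, a pair of 450 bp stretches at the 5' end of the mouse Tfcp2l1 gene that were cloned into reporter plasmids. They are 2 of the 26 promoter fragments in the plasmid library of the Tfcp2l1 locus, which holds 258 fragments in all. The members were taken by name: every plasmid design, or construct, of that library whose first or second fragment is P011 or P012, in either orientation. This gave 897 of the library's 55980 constructs, 103 with P011 and 795 with P012, and 1 of them held both. E14TG2a mouse embryonic stem cells, an established line grown in 2i+LIF medium that keeps them in the naive pluripotent state, received the library by nucleofection. There were 3 independent transfections, and RNA was taken after 24 h. The only groups compared are constructs, all read in the same 3 cDNA samples. The labels name no genetic change made to the line and no drug treatment beyond the medium. The assay reads transient plasmids, so it measures what a fragment does outside its chromosome.

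Tfcp2l1 encodes a transcription factor of the CP2 family that helps hold embryonic stem cells in the naive state and is a known target of LIF-STAT3 signalling. A promoter fragment carries the start site where RNA polymerase begins, and may carry a TATA box, the element bound by the TATA-binding protein just upstream of the start. Candidate cis-regulatory elements (cCREs) are stretches, often enhancers, that can raise transcription from a promoter and can in some cases start transcription themselves.

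P011 lies on chromosome 1 at 118627569 to 118628019 and P012 at 118627992 to 118628442 (mm10), so their stated coordinates share 28 positions. The RefSeq gene Tfcp2l1 spans 118627923 to 118685168 on the plus strand, with its start site in the RefSeq promoter table at 118627945. P011 therefore begins 376 bases before that start site and ends 74 bases after it, while P012 runs from 47 to 497 bases after it and does not hold it. The RefSeq window around the start site (GRCm38.p6, chr1:118627695-118627994, plus strand) lies inside P011 and is shown because it is what P011 has and P012 lacks, apart from its last 3 bases. For comparison, the window of Nifk (chr1:118321593-118321892, plus strand) lies in P007, the promoter fragment that gave the highest activity beside P012. Capitals mark TATAAA and CCACGCCC on either strand, CCACGCCC being a form of the CACCC-type element that Kruppel-like factors bind.
Tfcp2l1: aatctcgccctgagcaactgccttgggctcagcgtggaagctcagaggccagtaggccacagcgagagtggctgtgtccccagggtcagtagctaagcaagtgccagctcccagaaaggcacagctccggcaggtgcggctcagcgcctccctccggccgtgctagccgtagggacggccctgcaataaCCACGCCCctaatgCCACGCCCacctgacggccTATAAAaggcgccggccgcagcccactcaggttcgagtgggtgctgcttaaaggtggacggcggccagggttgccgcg
Nifk: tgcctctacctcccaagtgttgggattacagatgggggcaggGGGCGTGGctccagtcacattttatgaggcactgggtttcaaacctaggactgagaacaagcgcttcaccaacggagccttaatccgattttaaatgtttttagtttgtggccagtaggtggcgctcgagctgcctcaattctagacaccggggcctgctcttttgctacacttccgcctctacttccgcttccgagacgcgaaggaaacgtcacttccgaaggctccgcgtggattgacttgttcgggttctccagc
The Tfcp2l1 window holds 1 TATAAA, which starts 28 bases before the start site, and 2 copies of CCACGCCC, which start 61 and 47 bases before it. The Nifk window holds no TATAAA and 1 CCACGCCC on the opposite strand. Of 32851 windows of this length in the RefSeq table, 13.6% hold TATAAA and 5.33% hold CCACGCCC on either strand. The Tfcp2l1 window has 21 CG dinucleotides, against a median of 7 over all windows. These are matches of letters and say nothing of what is bound.

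Activity is the deposited ratio of reporter barcodes in cDNA to the same barcodes in plasmid DNA, per construct and replicate, on a linear scale. A construct with a cCRE as first fragment and a promoter as second is written here as the cCRE before the promoter, and one in the reverse order as the cCRE after the promoter. Counts of cCREs are of oriented cCREs, so the plus and minus forms of a cCRE count separately. The count of cCREs in or near Tfcp2l1 is of fragments instead. The labels do not say which position lies nearer the reporter, nor to what strand plus and minus refer. Among 4 promoter fragments of the library that hold a RefSeq start site, were measured alone in both orientations and exceeded an activity of 1, all 4 were more active in plus. These were the fragments at Nifk, on the plus strand of the chromosome, at Ralb and Tmem177, on its minus strand, and at Cfap221 and Gm33817, on opposite strands. Active fragments without a RefSeq start site went both ways. P021 and P022 were higher in plus, and P009 (1.76 in minus, 0.248 in plus) and P010 (5.15 and 4.78) in minus. Barcodes and reads per construct are not known from these tables. Over the 777 member constructs without a zero, log2 activities of replicate pairs correlated with Pearson's r of 0.849 to 0.865. A replicate at 0 occurred in 120 member constructs (13.4%), against 9.73% of the whole library, and replicate 1 held most of them, with 86 zeros among the members, where replicate 2 had 25 and replicate 3 had 31. Constructs with a zero have no log2 value and were left out of the tests unless stated. P011 was measured mostly in minus orientation. Its 62 constructs with a cCRE before it comprised 12 in plus and 50 in minus, and its 31 with a cCRE after it and 10 with another promoter were all in minus.

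Alone, both fragments were weak in the orientations given here. P011 in minus orientation gave activities of 0.0591, 0.0579 and 0.0483 in replicates 1, 2 and 3. P012 gave 0.104, 0.135 and 0.111 in plus and 0.152, 0.156 and 0.159 in minus orientation, and P011 alone in plus was not analysed here. The row named eempty alone, whose name the labels do not explain, gave 0.161, 0.186 and 0.190, and eempty with eempty 0.0460, 0.0658 and 0.0654. Against eempty with eempty, all 6 values of P012 lie above and the 3 of P011 lie within its range. All 6 values of P012 and all 3 of P011 lie below the 3 of eempty alone. This was common, as 27 of the 47 oriented promoter fragments measured alone had a geometric mean below that of eempty alone. Among the 47, P011 in minus ranked 14th and P012 in plus and minus 25th and 26th from the lowest. P012 in minus exceeded P011 in minus 2.83-fold without overlap between replicates (log2 difference 1.502, SE 0.21, limma, adjusted p = 0.00127). The exact two-sided permutation test of 3 values against 3 cannot go below 0.1 and gave 0.1. Alone and in minus, the start-site fragment was thus the lower of the pair. In plus the 2 could not be compared alone here.

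**Figure D1:**
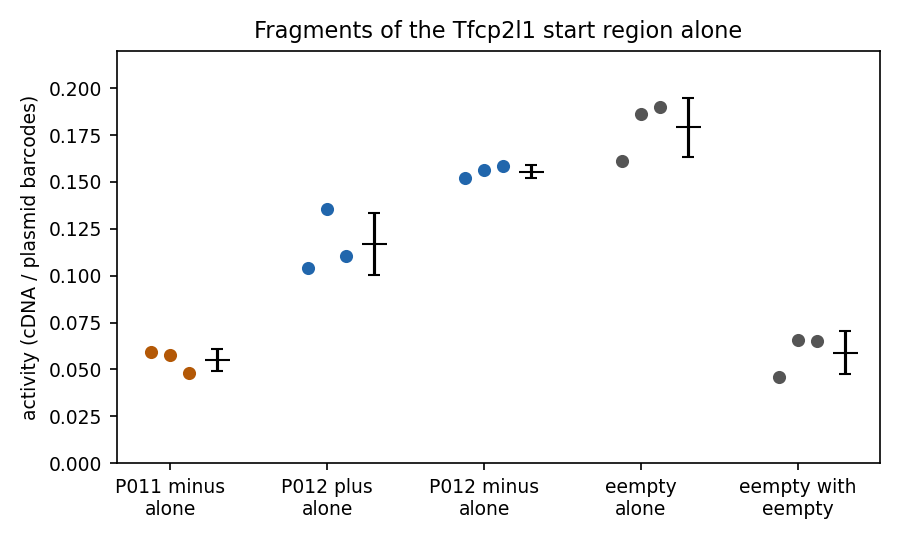
Activity on a linear axis of P011 and P012 alone and of 2 rows named eempty, with points for the 3 replicates and bars for the mean ± SD. P011 in minus lies between 0.0483 and 0.0591, P012 between 0.104 and 0.159, and eempty alone from 0.161 up.

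The first comparison asks how the same partner behaves beside P012 and beside P011, with the partner, both orientations and the order held fixed. Across all promoter fragments of the library, 64.8% of 54577 such swaps passed the threshold (limma, Benjamini-Hochberg adjusted p under 0.05) in either direction. Of 102 swaps of P011 for P012 beside a partner, 79 had no zero, and P012 was higher in 24 and lower in 12, a share of 45.6%. The counts are given by the orientation of the promoter. With a cCRE before the promoter in minus, P012 was higher in 16 of 40 and lower in 2, with a median log2 difference of 1.26 and 30 positive values. With a cCRE before the promoter in plus, P012 was higher in 0 of 10 and lower in 6, with a median of -1.495, and all 10 values were negative. The tests are limma's, and at an unadjusted p under 0.05 the plus counts were again 0 and 6. With the replicate as a block, E027- and E144- in minus were lost (adjusted p = 0.0675 and 0.0631), and E057+, E131- and E294+ were called (0.0338, 0.0402 and 0.0345), each higher with P012. With zeros kept and 0.01 added, P012 was higher in 21 and lower in 2 of 50 in minus, and higher in 0 and lower in 7 of 12 in plus.

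In minus orientation the largest difference was that of E032+, a cCRE within Clasp1 (chromosome 1, 118459316 to 118459766). It gave 0.0862, 0.0569 and 0.123 before P011 and 1.69, 1.78 and 1.78 before P012, without overlap. The log2 difference was 4.37 (SE 0.33, adjusted p = 0.000114), and E032+ alone had 0.968, 0.852 and 1.20. E017-, which overlaps an end of Tsn (118311123 to 118311573), gave 1.01, 0.940 and 1.35 before P011 but 17.4, 15.7 and 18.2 before P012. The log2 difference was 3.97 (SE 0.24, adjusted p = 6.06e-05), and E017- alone had 31.3, 29.0 and 33.5, above both. Before P011 in minus, then, the most active cCRE of the group kept only a small part of the activity it had alone.

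E209+ (119854864 to 119855314, between genes, nearest Ptpn4) gave 0.0339, 0.0645 and 0.0169 before P011 and 0.275, 0.357 and 0.474 before P012, a log2 difference of 3.43 (SE 0.53). The same cCRE in the other orientation, E209-, gave 0.00887, 0.0171 and 0.0241 against 0.113, 0.0867 and 0.139 (2.84, SE 0.43). E241+, within Gm41937 (120077668 to 120078118), gave 0.0807, 0.0229 and 0.0218 against 0.344, 0.320 and 0.406 (3.37, SE 0.55). Alone, E209+ and E209- had geometric means of 0.300 and 0.122, and their replicate values before P012 overlapped those alone, while those before P011 lay below. E241+ alone had 0.204, 0.207 and 0.244, below its values before P012 by 0.71 on the log2 scale (SE 0.19, adjusted p = 0.0203) and above those before P011. E066+ (118720634 to 118721084, between genes, nearest Tfcp2l1) gave 0.00396, 0.0433 and 0.0206 against 0.0852, 0.112 and 0.122, a log2 difference of 2.79 (SE 0.87, adjusted p = 0.0307). Without replicate 3 its adjusted p was 0.141. E170+ has a zero in 1 replicate before P011 and no test, and it gave 0.0169, 0.0191 and 0 there against 1.96, 1.77 and 1.72 before P012. It is named because these values stood out after they were seen, and alone it had a geometric mean of 0.0645.

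Only 2 cCREs in minus passed the threshold in the other direction. E051-, 4715 bases before Tfcp2l1 (118622758 to 118623208), gave 0.563, 0.762 and 0.569 before P011 and 0.0243, 0.0602 and 0.0426 before P012. The log2 difference was -3.98 (SE 0.39, adjusted p = 0.000285), and alone E051- had 0.0266, 0.0623 and 0.0498, like its values before P012. E227+, within Cfap221 (119954691 to 119955141), gave 0.400, 0.355 and 0.339 before P011 and 0.0455, 0.0775 and 0.0452 before P012 (-2.75, SE 0.30, adjusted p = 0.000412). Each of these constructs with P011 was also higher than P011 alone and than the cCRE alone, by 3.51 and 3.84 for E051- and by 2.73 and 2.09 for E227+ (log2, adjusted p at most 0.000297).

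In plus orientation, E054+ lies 1060 bases before the gene (118626413 to 118626863). It gave 1.66, 0.559 and 0.821 before P011 and 0.109, 0.211 and 0.1004 before P012. The log2 difference was -2.79 (SE 0.51, adjusted p = 0.00373), and E054+ alone had 0.282, 0.186 and 0.239, so that P011 lay above the cCRE alone in every replicate. E066+ gave 0.0626, 0.235 and 0.225 before P011 and 0.00471, 0.0453 and 0.0331 before P012 (-2.96, SE 1.00, adjusted p = 0.041). That call was lost without replicate 2 (adjusted p = 0.0943) or 3 (0.149). The other 4 past the threshold were E066-, E240-, E051- and E060-, with log2 differences of -2.72, -2.37, -1.95 and -0.90.

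**Figure D2:**
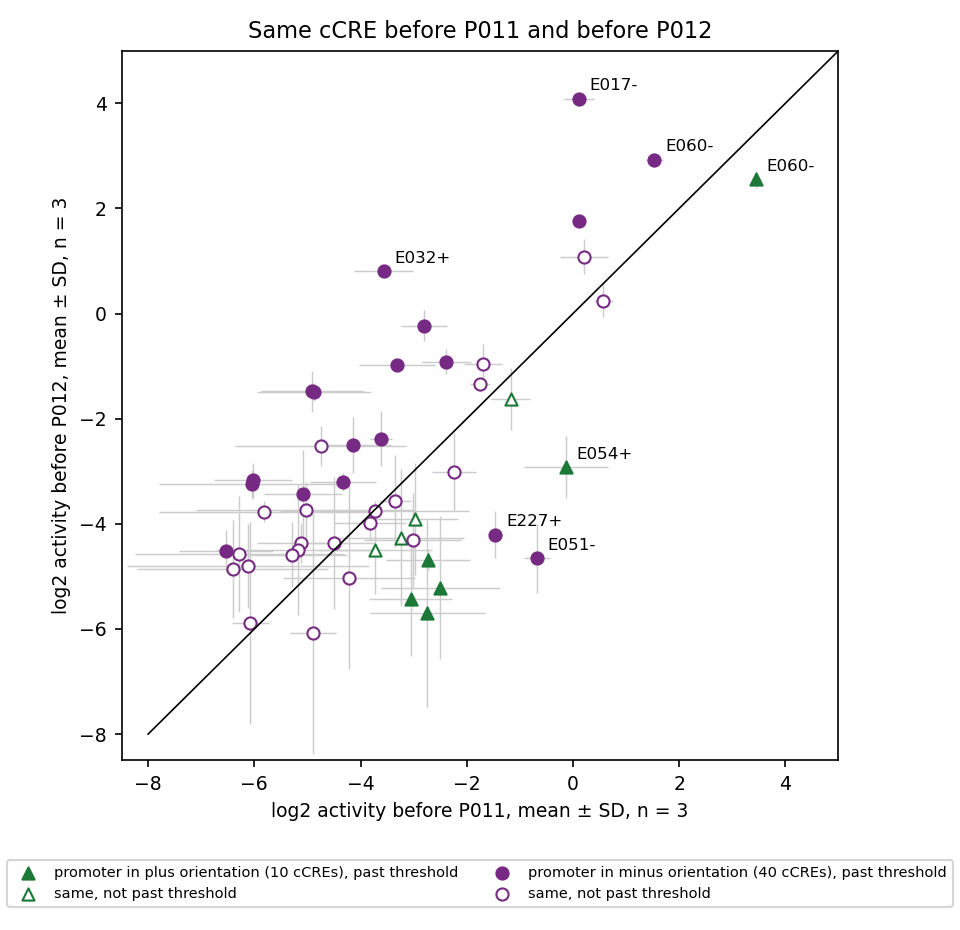
Log2 activity of the same oriented cCRE before P011 (horizontal) and before P012 (vertical) as mean ± SD of 3 replicates, with triangles for 10 cCREs in front of the promoters in plus, circles for 40 in minus, filled where the swap passed the threshold, and the line of equal activity. All 10 triangles lie below the line and 30 of the 40 circles above it.

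Before the promoters in minus, log2 activities of the 40 matched oriented cCREs correlated between P011 and P012 with r = 0.73 (rho = 0.66). In plus r was 0.92 over 10 oriented cCREs and rho 0.52. These are descriptions across cCREs that share libraries and the cCRE's own sequence. In minus, 17 of the 40 were below 0.1 with both fragments, 5 exceeded 1 with both, 1 only with P012 and 0 only with P011. Where P011 followed another promoter in minus, all 5 differences were positive. P022+ gave 0.436, 0.320 and 0.439 before P011 and 10.4, 10.2 and 11.3 before P012 (log2 difference 4.75, SE 0.24, adjusted p = 3.7e-05). P018+, with the Ralb start site, differed by 3.72 (SE 0.31) and P007+, with that of Nifk, by 2.64 (SE 0.22), while P033+ and P016- did not pass the threshold (2.14, SE 0.91, and 1.11, SE 0.64).

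The strong promoters fell in front of P011 in minus. P007+ alone had a geometric mean of 16.5, P022+ 7.30 and P018+ 6.52, and before P011 they had 2.48, 0.394 and 0.265. Against the partner alone these were log2 differences of -2.73, -4.21 and -4.62 (limma, adjusted p at most 4.63e-05). Before P012 in minus the same partners had 15.5, 10.6 and 3.49, of which P007+ did not differ from itself alone (log2 difference -0.09, adjusted p = 0.716), P022+ was higher by 0.54 and P018+ lower by 0.90. In the reverse order, with P011 first and P022+ second, activity was 6.198, 5.66 and 6.37, and did not pass the threshold against P022+ alone (-0.27, adjusted p = 0.231). P012 in minus before P022+ gave 3.97, 4.71 and 5.05, not past the threshold from P011 in that place (log2 difference of P012 to P011 -0.41, SE 0.22, adjusted p = 0.145). P022+ thus fell past the threshold with P011 second and not with P011 first, and the difference between these orders was not tested.

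**Figure D3:**
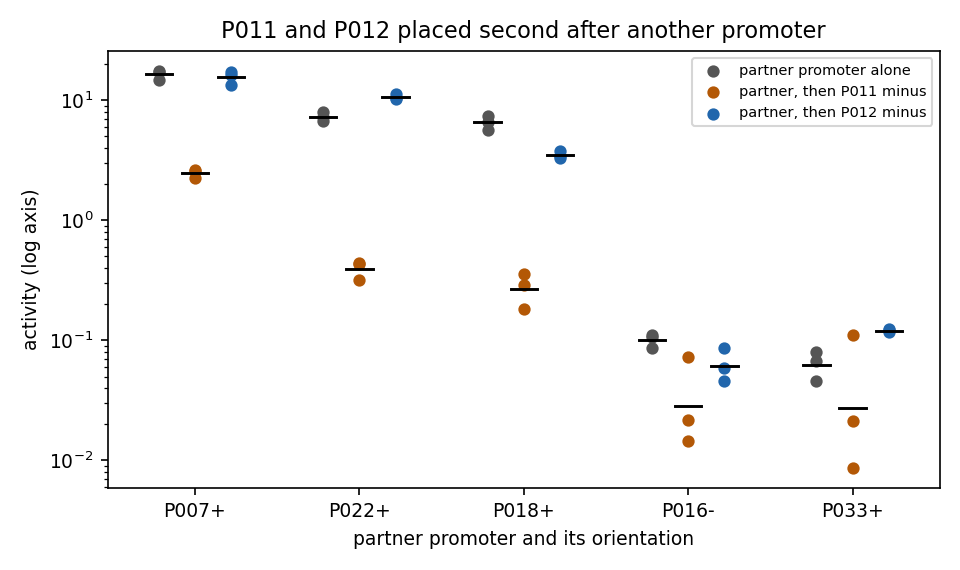
Activity on a log axis of 5 partner promoters alone and followed by P011 or by P012 in minus orientation, with points for 3 replicates and lines at the geometric mean. For P007+, P022+ and P018+ the P011 points, from 0.182 to 2.62, lie below both other groups.

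With the cCRE placed after the promoter, the fragments differed in both directions. P011 and P012 were both in minus in these 21 swaps, of which P012 was higher in 4 and lower in 3, with a median of 0.20. E209- after P011 gave 2.72, 2.44 and 2.17 and after P012 0.0274, 0.115 and 0.0417, the largest difference (-5.58, SE 0.55, adjusted p = 0.000289). E072- went the other way, with 0.0184, 0.0464 and 0.00452 after P011 and 0.326, 0.315 and 0.301 after P012 (4.32, SE 0.83, adjusted p = 0.00452). E209- and E072- were chosen for being the extremes, and E237+, also lower with P012, differed by -3.09 (adjusted p = 0.000222). Of the 7 calls, those of E032- and E166- were lost with the replicate as a block (adjusted p = 0.0529 and 0.0795), which in turn called E281+ (0.00965). With P011 or P012 first and another promoter second, P012 was higher in 1 of 3 and lower in 1: P024- gave 0.0781, 0.102 and 0.188 after P011 against 0.232, 0.452 and 0.386, and P033- 0.373, 0.350 and 0.422 against 0.0112, 0.0207 and 0.0803. The call of P024- was lost without replicate 2 (adjusted p = 0.15).

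The boost index takes out the basal level, as log2 activity minus the median log2 activity of all cCREs before the same oriented promoter. Its swaps passed the threshold in 28% of 27562 cases over the library. For the 50 matched pairs with a cCRE before P011 and P012, the index was higher with P012 in 6 and lower in 5, a share of 22%. All 11 were in minus, of 40, and none of 10 passed in plus by limma, where 2 had an unadjusted p under 0.05. With each promoter alone as the baseline, possible for the 40 in minus only, 4 were higher and 8 lower. The 6 higher were E032+ (3.55), E017- (3.14), E209+ (2.60), E241+ (2.55), E209- (2.02) and E249- (1.74). The lower were E051- (-4.81), E227+ (-3.58), E059+ (-2.13), E242- (-1.60) and E185- (-1.16), of which E059+ and E185- were lost with the replicate as a block (adjusted p = 0.106 and 0.0594). Leaving out replicate 1, 2 or 3 gave 8, 6 or 5 calls, of which 7, 6 and 5 were among the 11.

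Orientation was then compared within each fragment, with the same cCRE in the same place. Over the library, with a cCRE before the promoter, plus was higher in 40.9% of 1694 comparisons and lower in 8.38%. With the cCRE after it the shares were 22.9% and 10.8% of 1329. P011 could be compared with 8 oriented cCREs before it. Plus was higher in 4 and lower in 1, with a median log2 difference of 2.03 and 7 positive values. E060-, the cCRE inside Tfcp2l1 (118647958 to 118648408), gave 11.3, 11.4 and 10.2 before P011 in plus and 3.17, 3.02 and 2.55 before it in minus. This was 3.78-fold (log2 1.92, SE 0.19, adjusted p = 0.000486), and E060- alone had 7.57, 7.54 and 6.92, between the 2. The others that were higher in plus were E066+ (3.29), E209- (3.04) and E156+ (2.14), the last of which lies between genes nearest Gm33388 (119330036 to 119330486). E051- was lower in plus, with 0.197, 0.0802 and 0.216 against 0.563, 0.762 and 0.569 (-2.05, SE 0.43, adjusted p = 0.0112).

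With a cCRE before P012, plus was higher in 7 of 63 comparisons and lower in 7, with a median of -0.52 and 43 negative values. With the cCRE after P012, plus was higher in 18 of 119 and lower in 15, with a median of 0.13. E060- gave 6.66, 5.39 and 5.61 before P012 in plus and 8.43, 7.32 and 7.13 in minus. The 5 largest differences of P012 were with a cCRE after it: E133+ (119166275 to 119166725) gave 0.0214, 0.0653 and 0.0607 after P012 in plus and 4.81, 3.69 and 5.32 after it in minus (-6.70, SE 0.49). E134- and E269- were likewise lower in plus (-6.33 and -5.97), and E217+ and E283+ higher (6.04 and 5.99), all between genes except E269-, which lies within Steap3. The lower values of E134-, E217+ and E269- were near 0 and spread widely, as with E269- in plus (0.00376, 0.00675 and 0.108). With a cCRE before P012, E091+ came close to these, higher in plus by 5.84 (SE 0.46).

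Whether the orientation effect itself differed between the fragments was tested as an interaction over 11573 sets of 4 constructs that share a cCRE, of which 50.2% passed over all promoter pairs. This test was added after the orientation results had been seen. Of 8 oriented cCREs, 5 had a signed plus-minus difference that was lower with P012 and 1 a higher one, with a median interaction of -3.15. E051- gave -2.05 with P011 and -0.03 with P012, and E240- gave 1.28 and -2.23. Lower and higher here thus do not mean weaker and stronger. With E060- the plus-minus log2 difference was 1.92 for P011 and -0.38 for P012 (interaction -2.30, SE 0.26, adjusted p = 5.21e-05). E066+ gave -5.75, E209- -3.77, E240- -3.51 and E156+ -2.79, and E051- went the other way with 2.03. E066- gave -4.03 with an adjusted p of 0.0526, which was 0.00966 with the replicate as a block. Without replicate 3 the count fell from 6 to 3.

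**Figure D4:**
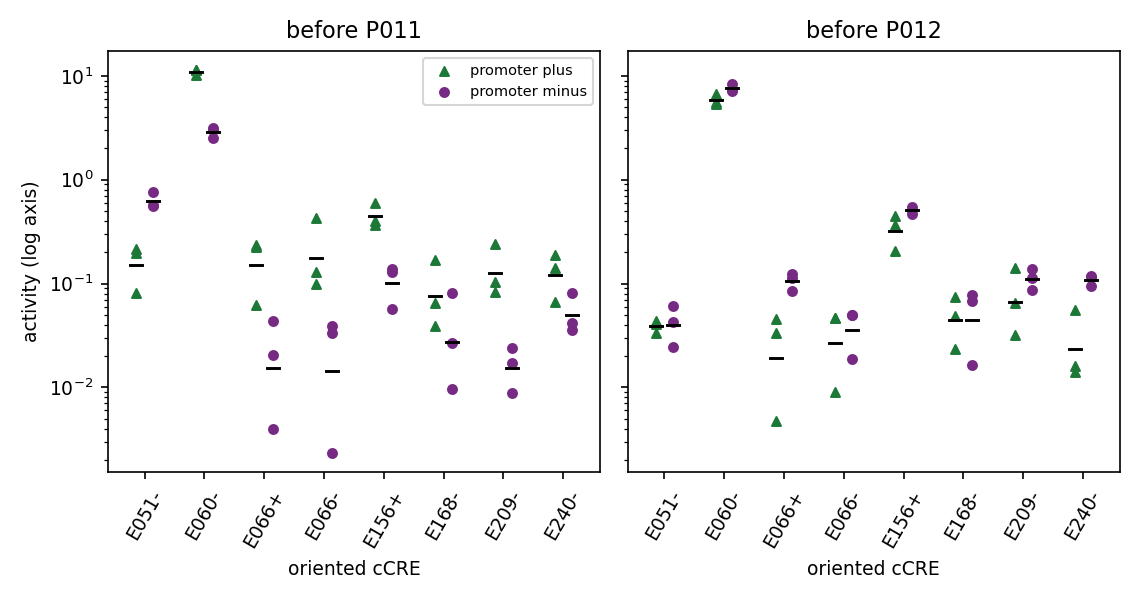
Activity on a log axis of 8 oriented cCREs before P011 (left) and before P012 (right), with the promoter in plus (triangles) or minus (circles), 3 replicates each and lines at the geometric mean. Before P011 the geometric mean is higher in plus for all but E051-, and before P012 E060- stands at 5.39 to 8.43 in both orientations.

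The order of the fragments was compared with both orientations held fixed. Over the library, the construct with the promoter second was the higher in 29.7% of 2234 pairs and the lower in 19.3%. For P011 in minus it was the higher in 0 of 9 and the lower in 5 (limma; also 5 at an unadjusted p under 0.05), with a median of -1.75. The largest was E209-, with 2.72, 2.44 and 2.17 after P011 and 0.00887, 0.0171 and 0.0241 before it, a 158-fold difference (log2 -7.30, SE 0.40, adjusted p = 8.7e-05). E237+, within Sctr (120042349 to 120042799), gave 0.800, 0.750 and 1.05 after P011 and 0.0135, 0.159 and 0.0133 before it (-4.81, SE 1.02). E066-, E209+ and E249- followed with -3.64, -2.81 and -1.75, and E066- did not pass with the replicate as a block (adjusted p = 0.0559). For P012 the promoter-second construct was the higher in 25 of 138 and the lower in 18, with a median of 0.42. E091+, within Gli2, showed both directions: with P012 in plus it gave 2.05, 1.29 and 1.62 before and 0.0265, 0.0524 and 0.0231 after the promoter. With P012 in minus it gave 0.0157, 0.0486 and 0.0298 before and 0.694, 0.802 and 0.474 after it. The other large differences of P012 were E159- (5.33), E134- (-4.58) and E051+ (-4.13), all in minus.

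Each construct was next set against the promoter alone. Over the library 24.3% of constructs with a cCRE before the promoter were higher than the promoter alone and 21.4% lower. With the cCRE after the promoter these shares were 22.9% and 41.4%, and with 2 promoters 33.1% and 28.6%. Before P011 in minus 14 of 41 were higher (34.1%) and 3 lower, after it 12 of 23 (52.2%) and 2, and with another promoter 6 of 9 and 0 (limma; 6 and 0 also at an unadjusted p under 0.05). Before P012 72 of 247 were higher (29.1%) and 81 lower, after it 109 of 367 (29.7%) and 121, and with another promoter 32 of 79 and 23. Another baseline was the median over constructs with a cCRE before the same oriented promoter, used also for constructs with a cCRE after it or with another promoter. Against this median P012 had 260 higher and 78 lower, where it had 213 and 225 against itself alone. P011 in minus had 32 and 5 against either baseline, and the median also allowed the 12 constructs in plus, of which 3 were higher and 0 lower (limma; 3 and 0 also at an unadjusted p under 0.05). With zeros kept P011 had 31 and 10, and P012 211 and 308.

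E017 and E060 were among the cCREs of highest activity with both fragments. Before P012 they were E017- in both orientations of the promoter (15.7 and 17.1, geometric means in plus and minus), E060+ (12.1 and 11.9) and E060- in minus (7.605). Before P011 they were E060- (10.97 in plus and 2.90 in minus), E185- within Ralb (1.49), E294+ nearest Marco (1.15) and E017- (1.09). The lowest before P011 were E086+, E131-, E250+, E066- and E273-, at 0.0108 to 0.0149, and before P012 E266+, E142-, E263+, E097+ and E217-, at 0.00770 to 0.0147. Values this low could vary widely between replicates, as those of E217- before P012 did, with 0.00993, 0.00381 and 0.0848. The depth behind them is unknown.

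Against the cCRE alone the picture was another, and this baseline was added after the values of single fragments had been seen. Over the library 40.2% of constructs with a cCRE before the promoter were higher than the cCRE alone and 25.9% lower. With the cCRE after the promoter the shares were 32.6% and 20%, and with 2 promoters, against the partner alone, 33.1% and 28.4%. Before P011 in minus 3 of 41 were higher and 22 lower, with a median log2 difference of -1.54. Before P011 in plus 5 of 12 were higher and 0 lower (limma; 0 lower also at an unadjusted p under 0.05), with a median of 0.58. Before P012 the counts were 24 and 34 of 182 in minus (median -0.26) and 3 and 12 of 64 in plus (-0.43). After P011 they were 4 and 12 of 23, after P012 39 and 112 of 366, and with another promoter 1 and 4 of 9 for P011 and 13 and 19 of 77 for P012.

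The activity of the constructs was then set against the cCRE's own activity. Before P012 in minus, log2 activity of the construct and of the cCRE alone correlated across 182 oriented cCREs (r = 0.79, rho = 0.66). Across 64 in plus r was 0.88 (rho = 0.82). Before P011 in minus r was 0.70 over 41 oriented cCREs (rho = 0.57). These are descriptions, and the points share the cCRE and the 3 libraries. Of 18 cCREs above 1 alone, 16 stayed above 1 before P012 in minus, with a median activity of 2.60. Of the 164 at or below 1 alone, 7 rose above it there, and their group's median was 0.0744. Before P011 in minus 4 of 5 stayed above 1, with a median of 1.09, and 1 of the 36 others exceeded it.

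**Figure D5:**
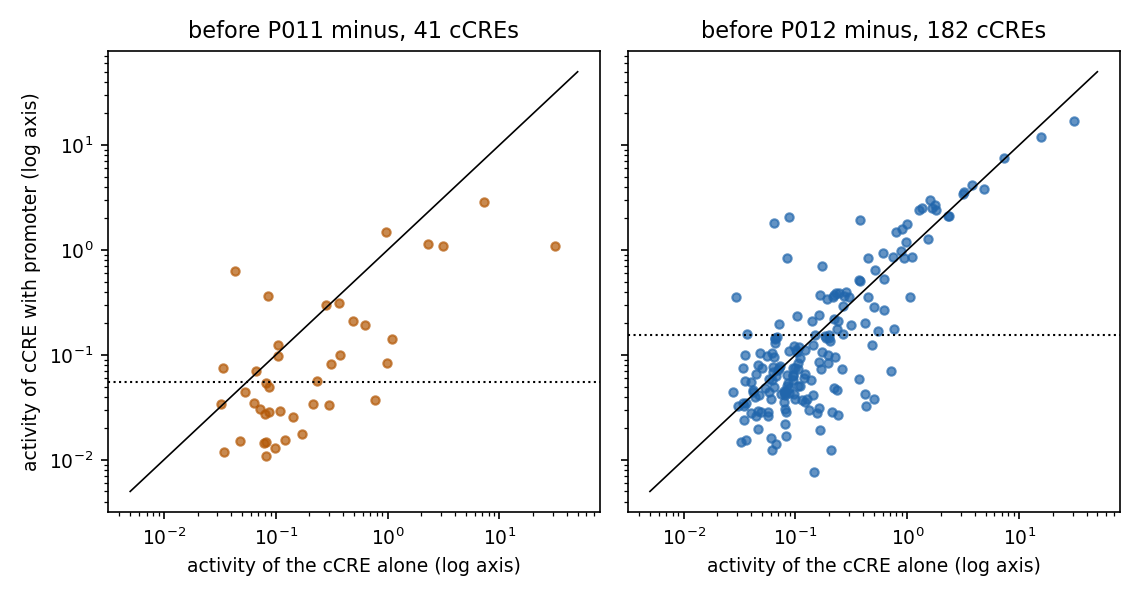
Activity on log axes of cCREs alone (horizontal) and before P011 or P012 in minus orientation (vertical), as geometric means of 3 replicates, with a line at equal activity and a dotted line at the promoter alone. Most of the 41 points of P011 lie below the line, with a median log2 difference of -1.54, and those of P012 lie around it, with -0.26.

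Some constructs exceeded both of their fragments alone. Over the library 9.39% of 10747 tested did so and 7.38% lay below both, a construct of 2 promoters being counted once for each. With P011 8 of 73 lay above both and 5 below, and with P012 64 of 689 above (9.29%) and 98 below (14.2%). The P012 constructs above both included E133+ after P012 in minus, already given, where E133+ alone had 0.0526. P020- before P012 in plus gave 4.36, 3.74 and 4.79, with P020- alone at 0.105, whereas before P012 in minus it gave 0.342, 0.231 and 0.249. E159- before P012 in minus gave 2.28, 1.94 and 1.95, with E159- alone at 0.0870, and after it 0.0538, 0.103 and 0.0237. Such constructs with P011 were led by E209- after it, 4.32 above the cCRE alone (log2). For E133+, E159- and E209- a change of order or of orientation of the promoter gave values near or below those of the fragments alone, while P020- before P012 in minus was still above both.

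The 11 cCREs inside Tfcp2l1 or within 20 kb of P011 and P012 behaved unlike each other. E060, the most active, was above the promoter alone in all its tested constructs: 4 of 4 before P012 (geometric means 5.86 to 12.1), 4 of 4 after it (4.07 to 7.37), and both with P011 in minus. E060+ after P011 gave 6.58, 5.90 and 6.74, and after P012 in minus 7.32, 7.58 and 7.21, a difference that did not pass the threshold (0.20, SE 0.20, adjusted p = 0.417). E054, upstream of the gene, was above P012 alone in 2 of 3 constructs before it (0.132 to 0.392) and in 0 of 4 after it. E051, further upstream, was below P012 alone in 3 of 4 before it (0.0389 to 0.0415), and with the replicate as a block E051+ before P012 in plus was below as well (adjusted p = 0.0469, against 0.0513). E051 after it ranged from 0.0338 to 0.727 with 1 above and 2 below. E053, nearest to the gene on that side after E054, was measured only after P012, at 0.0170 to 0.0562, with 1 of 3 below. Inside the gene, E061 was above P012 alone in its only construct before it (0.710), and E062 and E057 each in 1 construct after it (up to 0.382 and 0.691). E059 was below P012 alone in 3 of 3 constructs before it. E055 had 1 construct below in each order, the one after P012 not with the replicate as a block (adjusted p = 0.0544), E057, E059 and E063 1 below after the promoter, and E058 a single construct, at 0.184, that did not pass. With P011, E055, E057 and E059 gave 0.0352, 0.0372 and 0.124 before it, none past the threshold. The lower calls given here are against P012 alone. E051 and E059 before P012 reached at most 0.0415 and 0.0608, where eempty with eempty had a geometric mean of 0.0582. Over all cCREs before P012, 81 of 247 constructs were lower than P012 alone, and 20 were lower than the median baseline.

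Of other promoters, 7 were measured with P011 and 19 with P012. The highest with P012 were P007 (21.7 after P012 in plus, and P007+ 15.5 before P012 in minus), P022 (11.1 before P012 in plus) and P010, in which no RefSeq start site lies (P010- 8.40 before P012 in minus). Against the partner alone, P010- before P012 was higher by 0.705 on the log2 scale (adjusted p = 0.0152), and P022+ before P012 by 0.61 and 0.54 in plus and minus (both 0.0379). P007+ did not pass the threshold after P012 in plus (0.40, adjusted p = 0.11) or before it in minus. The lowest were P033+ after P012 in minus (0.0157), P015+ and P015- after P012 in plus (0.0169 and 0.0171) and P013+ after P012 in minus (0.0204). With P011 the highest were P022+ after it (6.07), P007+ before it (2.48) and P033- after it (0.381), of which P033- was higher than alone (3.25, adjusted p = 0.000652). The lowest were P012+, P033+ and P016- before it, at 0.0244, 0.0273 and 0.0285. The construct that joins both fragments, P012 in plus before P011 in minus, gave 0.126, 0.0648 and 0.00177, which spread widely and did not pass the threshold against either fragment alone (adjusted p = 0.557 against P011 and 0.258 against P012).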

How the data were processed

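The Upstream assay of the Tfcp2l1 library was read as deposited. Per the file headers, activity is a ratio of cDNA to plasmid barcodes for each of 3 biological replicates, and the authors deposited a boost index on a log2 scale. The deposited mean equals the geometric mean of the 3 ratios for 50533 of 50533 constructs without a zero, and the recomputed index equals the deposited log2 index for 5065 of 5065 finite values (tolerance 0.001). Barcodes were linked to fragments and counted by the authors; Bowtie2 and mm10 are named in the submitters' processing notes, and depth, versions and barcode filters are not given in the sources used here. Of 37 value columns, 26 were not used.

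Log2 activities were compared with limma 3.58.1 (lmFit, eBayes) in R 4.3.3, 3 values against 3, with Benjamini-Hochberg adjustment over all comparisons of that kind in the library and a threshold of 0.05. P-values measure the spread between 3 transfections of the same plasmid library. An error shared by all 3, such as barcodes linked to the wrong fragments, does not enter them. The labels list 2 plasmid DNA samples for the 3 cDNA samples. Both constructs of a comparison come from the same 3 transfections, so replicate numbers pair the values; deviations of paired constructs correlated at 0.058, 0.035 and 0.031 in replicates 1 to 3, and the fit with the replicate as a block is given where it changes a call stated for a named construct. The boost index needed 10 constructs per median. The tests of promoter swaps, of partners, of orientation and of order were checked on simulated data. The boost and interaction tests and the fits with the replicate as a block were not. Simulated pairs had independent normal noise and mostly no change, whereas constructs here enter many comparisons, so the check does not cover these shared constructs. cCREs are named if, before the promoter, they gave the 10 largest P012-P011 differences past the threshold with 1 sign in all replicates, the 5 highest or lowest levels before a fragment or the 5 largest orientation or order differences, or if they lie in Tfcp2l1 or within 20 kb; of partner promoters, the 3 highest and 3 lowest. Others are named as chosen after their values were seen. The members, lists and rules were chosen with earlier results of these data known. Alternatives were a pseudocount of 0.01 with zeros kept, leaving out pairs with both activities under 0.1, centring replicates, a trended prior, other baselines, the replicate block and each replicate left out. Fragment sequences were not used here; windows are RefSeq's, build GRCm38.p6.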

Additional observations from a re-analysis of the deposited data

Results flagged for a closer look

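The orientation of the promoter fragment had a different effect in P012 than in P011 for 6 of 8 oriented cCREs. The test was limma's interaction of promoter and orientation, with adjusted p under 0.05. The interaction, in log2 units and as the plus-minus difference of P012 minus that of P011, was 2.03 for E051-, -2.30 for E060-, -5.75 for E066+, -2.79 for E156+, -3.77 for E209- and -3.51 for E240-. The 8 oriented cCREs were the only ones measured without a zero in all 4 constructs. In the library 50.2% of such interactions between promoter pairs passed. Replicates at 0 were more frequent among P011 constructs (17.5%) than among P012 constructs (12.8%), and their part in the result was not tested.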

How the results depend on the processing

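The difference between the fragments alone stayed at or above 1.35 and past the threshold in all 8 alternatives run. Of the 37 swap calls, that of the fragments alone included, 25 to 37 were kept, with the same sign, over 8 alternatives, 33 of them with the replicate block. Of the 11 boost calls, 5 to 11 were kept over 9 alternatives, and 9 with the replicate block. Leaving out a replicate gave 5 to 8 boost calls in place of 11, 32 to 41 orientation calls in place of 52 (the lowest without replicate 3), 30 to 40 order calls in place of 48 (the lowest without replicate 2) and 3 to 6 interaction calls in place of 6. Against the partner alone, an alternative added after seeing the data, P012 had 256 calls in place of 438, and the cause was not tested. The count of calls stayed within 1.5 times in all other alternatives of these results. With the replicate block the counts were 37 swaps, 9 boost swaps, 34 and 414 partner effects on P011 and P012, 49 orientation, 48 order and 7 interaction calls. The block removed 4 swap, 2 boost, 30 partner, 6 orientation and 6 order calls and added 4, 0, 3, 3 and 6, and 1 interaction call. Of the 10 largest swap differences with a cCRE before the promoter, each kept its sign in all 8 alternatives, and only E066+ lost its call, in plus without replicate 2 or 3 and in minus without replicate 3. Of the 12 swap calls with a cCRE after the promoter or with another promoter, each also kept its sign. Among these 12, E032-, E166- and E268+ after the promoter lost their call in at least 2 of the 3 fits that leave out 1 replicate. Of them, E032- and E166- also lost it with the block. P024- lost its call without replicate 2, and the others of the 12, E209-, E072- and P022+ among them, kept it. The remaining calls with a cCRE before the promoter enter only the counts above, and E027- and E144- among them lost theirs with the block. Barcodes per construct are unknown, so values near 0 have no counting limit here, and P011 in plus rests on 12 constructs.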
